A study of Mus musculus with 8 samples.

Results

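The genes described here encode the heat shock chaperones of the cytosol and the mitochondrion, their co-chaperones, and the heat shock factors Hsf1 and Hsf2. They were taken by name as a list of 40 mouse genes, and earlier results of these data were known when the list was made. All 40 were found among the 19896 genes that both deposited tables hold. By role they form 9 groups, namely 2 heat shock factors, 6 HSP70 genes, 3 HSP110 genes, 4 mitochondrial chaperones, 2 HSP90 genes, 2 small heat shock protein genes, 7 J-domain (DNAJ) genes, 5 BAG genes and 9 further co-chaperones of HSP90 and HSP70.

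Heat shock factor 1 (HSF1) is a transcription factor that binds inverted repeats of the letters GAA, called heat shock elements, in front of chaperone genes and raises their transcription when unfolded proteins build up. HSP70 proteins hold unfolded segments in a cycle that J-domain proteins start and that HSP110 and BAG proteins help to end, and HSP90 acts on later folding states of clients such as kinases and steroid receptors with the help of co-chaperones. HSP60 and HSP10 form the folding chamber of the mitochondrial matrix. CCT, also called TRiC, is the ring-shaped chaperonin of the cytosol that folds actin and tubulin and receives clients from HSP70 and from prefoldin, so that its loss raises the question whether the other chaperones change with it.

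RNA came from E14 mouse embryonic stem cells, an established pluripotent line, in 8 libraries of 4 groups with 2 libraries each. Cct7 KD cells carried the vector pLKO-Tet-on, which has a puromycin resistance gene and makes a short hairpin RNA when doxycycline is added, with a hairpin against Cct7, and Cct7 KD Ctr cells the same vector without a hairpin. Cct5 KD cells carried a hairpin against Cct5 in that vector, and Cct5 KD Ctr cells again the empty vector. All groups, controls included, went through 14 days of 0.5 µg/ml puromycin and then 2 days of 2 µg/ml doxycycline. The medium held serum and LIF, and the drugs and the vector are shared by every comparison. Per the series text positive clones were picked, and neither the number of clones behind a group nor the hairpin sequences are given in the sources used here. Nothing says that the libraries of a group are separate cultures, so the p-values below measure only the spread between libraries, which may be technical.

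The values are FPKM, fragments per kilobase of gene scaled to sequencing depth, as the authors deposited them, and coordinates of genes are those of GENCODE on GRCm38. The targeted genes followed the labels, with Cct7 at 14.4 and 17.8 FPKM in Cct7 KD against 269 and 280.1 in Cct7 KD Ctr, and Cct5 at 70.8 and 73.4 FPKM in Cct5 KD against 368 and 367 in Cct5 KD Ctr. The sequencing depth worked out from the steps between low values was 18800000 to 20700000 fragments for Cct7 KD, 22300000 to 23300000 for its controls, and 21200000 to 54600000 for the Cct5 KD Ctr libraries, and none could be worked out for Cct5 KD. The Cct5 KD libraries stood apart. For 19881 of the 19896 genes, subtracting 1.125 times the Cct7 KD value with that replicate number from the Cct5 KD value left an amount of 0 or more, here called the remainder. The multiple of Cct7 KD accounted for 71.3% of total FPKM in either Cct5 KD library. None of the 40 chaperone genes was among the 15 exceptions, which include Cct5. No remainder was formed for Cct5, so the knockdown of Cct5 can be read only in Cct5 KD as deposited. Low values of the remainder were whole multiples of 1 step in 99.0% and 99.1% of genes used for this, while those of Cct5 KD as deposited were so in 68.8% and 50.2% at best. The Cct5 KD libraries are therefore no independent repeat of Cct7 KD, and what they hold beyond it is given through the remainder. Total FPKM in Cct5 KD was 1.502 times that of its control, and 0.957 times in Cct7 KD.

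Changes are differences in log2(FPKM + 1) after the libraries compared were scaled by the median of ratios, which sets the median gene close to 0. Scaling lowered the median change by 0.17 in Cct7 KD and by 0.71 in Cct5 KD, and raised it by 1.22 in the remainder, all on the log2 scale. A change below is thus relative to the median gene, and it understates the change of genes near 0. In bulk RNA, a smaller share of cells with a transcript and less of it per cell cannot be told apart. A gene rose or fell where limma's Benjamini-Hochberg adjusted p over all genes tested was under 0.05, and the test took genes whose mean in the libraries compared was 1 FPKM or more.

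Heat shock elements were searched for in the promoters of the 40 genes, because the letters in front of these genes are what HSF1 binds. The windows came from RefSeq on GRCm38.p6, run from 250 bases before to 50 after a transcription start, and were at hand for 33 of the 40 genes. The 3-unit element GAANNTTCNNGAA, read as TTCNNGAANNTTC on the other strand, was found in 5 of these 33 genes (15.2%), which were Hsph1, Hspe1, Hspd1, Dnajb6 and Chordc1. Among all 27025 genes with a window it was found in 179 (0.662%). The shorter GAANNTTC, which reads the same on both strands and lies within many longer elements, was found in 14 of the 33 genes (42.4%), against 9.04% of all genes. The share for TTCNNGAA was 21.2%, against 9.60% of all genes. A match is a description of letters, and a window without one says nothing about HSF1. The elements are shown with 3 bases on each side, with every base that belongs to a match of the 3-unit letters in capitals.
Hsph1, chr5:149636285-149636303, minus strand, 15 bases after the start: agaTTCTGGAAAGTTCtcc
Hspe1, chr1:55088056-55088079, plus strand, 89 bases before the start: ccgTTCTAGAACCTTCCGGAAggc
Dnajb6, chr5:29735849-29735867, plus strand, 46 bases before the start: cgaGAATCTTCCGGAAcgc
Chordc1, chr9:18292260-18292288, plus strand, from 4 bases before the start: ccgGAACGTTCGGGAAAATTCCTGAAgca

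The Hspe1 element held 2 overlapping matches and the Chordc1 element 3. RefSeq gives Hsph1 and Dnajb6 2 starts each, and the distances above are from 1 of them. From the other start, the Hsph1 match lies 36 bases after it and the Dnajb6 match 127 bases before it. Hspe1, which encodes HSP10, and Hspd1, which encodes HSP60, lie head to head on chromosome 1, and RefSeq gives Hspd1 2 starts. The window of the Hspd1 start 95 bases from that of Hspe1 holds no 3-unit match. The 24 bases shown for Hspe1 lie 144 bases before the Hspd1 start that is 216 bases from that of Hspe1, on the opposite strand. The 250 bases before the Hspe1 start are shown because they also lie before that Hspd1 start in large part and both genes fell in Cct7 KD, as given below. They run along the plus strand of GRCm38.p6, and the element is in capitals.
Hspe1 upstream, chr1:55087898-55088147: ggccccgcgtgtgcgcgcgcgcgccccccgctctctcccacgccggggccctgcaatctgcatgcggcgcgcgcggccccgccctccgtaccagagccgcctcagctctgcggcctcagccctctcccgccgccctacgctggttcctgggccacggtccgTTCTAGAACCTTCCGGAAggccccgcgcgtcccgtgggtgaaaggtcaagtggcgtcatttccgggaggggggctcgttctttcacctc

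In Cct7 KD the chaperone genes moved in both directions, and the abundant ones were nearly all lower. Of the 39 genes tested, 13 rose, 22 fell and 4 did not pass the test, with a median change of -0.26. Over all 13588 genes tested, 40.3% rose and 40.5% fell, 80.9% in all, and the median change was -0.0058, so the share of chaperone genes called was near that of all genes. Without scaling, 15 rose and 18 fell, and with scaling to a common FPKM total 16 rose and 18 fell. Over all genes, 6702 rose and 4353 fell without scaling and 7131 rose and 3983 fell with a common total, against 5482 and 5504 with the median of ratios. After scaling, both Cct7 KD libraries were above both controls for 14 genes and below them for 22, where the groups were apart in 90.7% of all genes tested. Hspa1a was the gene not tested, and Dnaja4 passed the filter on low values only through the knockdown, since its control mean was under 1 FPKM.

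The 40 genes together took 3.58% and 3.53% of all FPKM in Cct7 KD, against 3.85% and 3.84% in Cct7 KD Ctr. Most of this sum was Hspa8, Hsp90aa1 and Hsp90ab1, so it says little about the other genes. The HSP70 genes took 1.35% and 1.36% in Cct7 KD, against 1.36% and 1.35% in Cct7 KD Ctr. The HSP90 genes took 1.65% and 1.59% in Cct7 KD, against 1.76% and 1.75% in Cct7 KD Ctr. Of the 14 tested genes with a mean above 100 FPKM, 13 fell and 1 rose, and among all 692 genes at that level 67.8% fell and 22.7% rose. Of 17 between 10 and 100 FPKM, 8 rose and 8 fell, where all genes had 36.1% and 49.1%. Of the 8 under 10 FPKM, 4 rose and 1 fell, where all genes had 45.7% and 30.5%. The plot of level against change shows both the chaperone genes and the other genes.

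**Figure D1:**
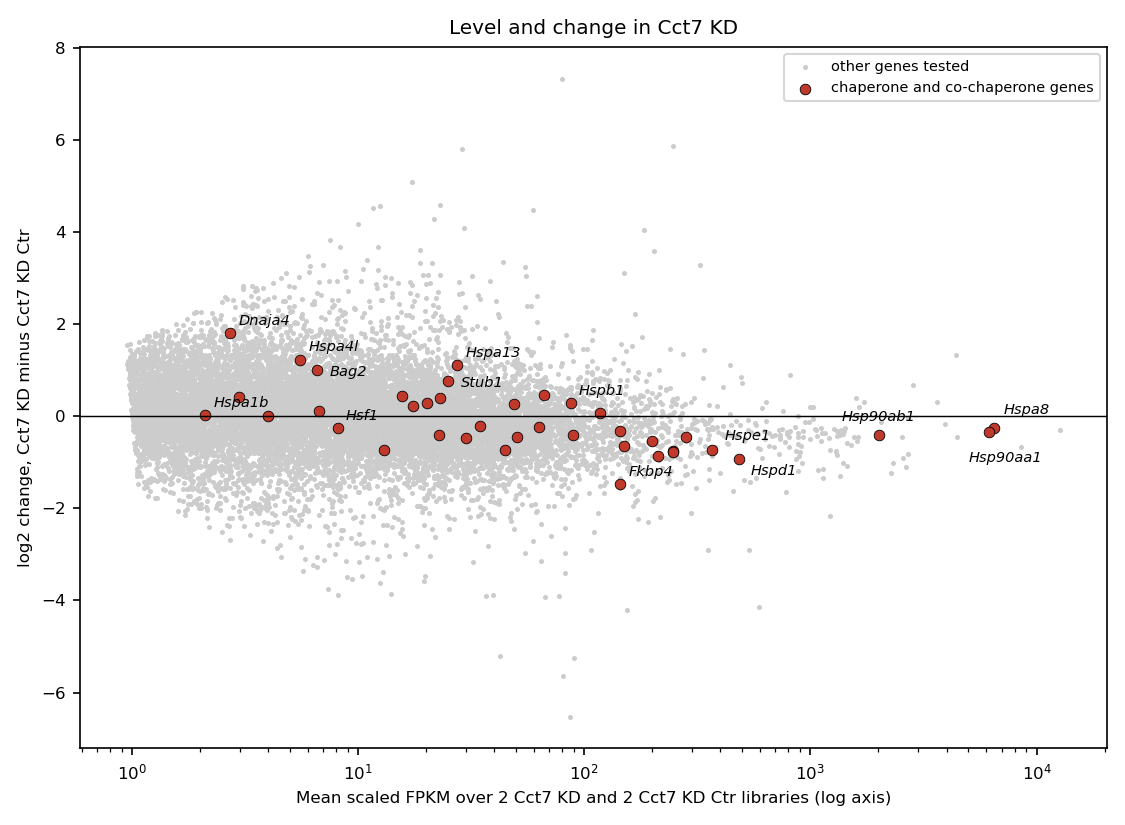
Change against level in Cct7 KD. The horizontal axis is the mean scaled FPKM over 2 Cct7 KD and 2 Cct7 KD Ctr libraries on a log axis, the vertical axis is the log2 change relative to the median gene, red points are the 39 tested chaperone and co-chaperone genes and grey points the other genes tested. Of the 14 red points above 100 FPKM, 13 passed the test as lower, and Dnaja4 with a change of 1.81 is the highest red point.

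The heat shock factors were a little lower. Hsf1, the main activator of the heat shock response, had 7.65 and 7.91 FPKM in Cct7 KD, against 8.67 and 8.12 FPKM in Cct7 KD Ctr. Both knockdown values were under both control values, but the gap was smaller than that between the controls. The log2 change of Hsf1 was -0.26 ± 0.05 (SE; limma adjusted p = 0.0058), and it did not pass without scaling (-0.10) or with a common total (-0.04). Hsf2, a second family member that can bind the same element together with HSF1, had 26.5 and 26.3 FPKM in Cct7 KD, against 33.3 and 32.2 FPKM in Cct7 KD Ctr. Its groups were well apart, and it fell by 0.48 on the log2 scale (SE 0.03, limma adjusted p = 6.4e-05).

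The stress-inducible HSP70 genes, the transcripts that rise most in a textbook heat shock response, stayed near the bottom of the measured range. Hspa1a was listed at 0.795 and 0.803 FPKM in Cct7 KD, against 0.663 and 0.651 FPKM in Cct7 KD Ctr, and was too low to be tested. Hspa1b had 2.21 and 2.32 FPKM in Cct7 KD, against 1.87 and 2.02 FPKM in Cct7 KD Ctr. The deposited values of Hspa1b were higher in both knockdown libraries, but its change after scaling was 0.03 with a 95% interval of -0.17 to 0.22 (limma adjusted p = 0.76). Hspa1a and Hspa1b are near-identical neighbours on chromosome 17, and 49.9% of the 100-base words of the Hspa1b transcript also occur in Hspa1a, so the split of reads between them is uncertain.

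Hspa8 (chr9:40800984-40810087), the constitutive cytosolic HSC70 and the most abundant gene of the list in Cct7 KD Ctr, had 6258 and 6263 FPKM in Cct7 KD, against 6586 and 6627 FPKM in Cct7 KD Ctr. Its change was -0.26 ± 0.05 (SE; limma adjusted p = 0.0040), and the call was lost without scaling (-0.08), with a common total (-0.01) and without either Cct7 KD library (adjusted p = 0.081 and 0.066). A share of 31.6% of its 100-base words occurs in other genes, mostly processed copies. Of the less abundant HSP70 genes, 3 went the other way. Hspa13, a relative of HSP70 found on the microsomes, had 40.71 and 40.04 FPKM in Cct7 KD, against 16.02 and 15.95 FPKM in Cct7 KD Ctr. It rose by 1.11 ± 0.03 on the log2 scale (SE; limma adjusted p = 4e-06), where 10.5% of all genes tested rose by at least 1. Hspa14, which works with a J-domain protein at the ribosome, and Hspa2, the HSP70 gene known for its part in spermatogenesis, rose by 0.47 and 0.41. Of the 5 HSP70 genes tested, 3 rose, 1 fell and 1 did not pass, where 40.3% of all genes tested rose and 40.5% fell.

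The HSP110 proteins exchange the nucleotide of HSP70 and so release its clients, and the 3 genes split. Hspa4, the most abundant of them, had 198 and 194 FPKM in Cct7 KD, against 290.5 and 293 FPKM in Cct7 KD Ctr, and fell by 0.76 (SE 0.03, limma adjusted p = 7.2e-06). Its close relative Hspa4l, known from testis and from cells under osmotic stress, had 8.52 and 8.88 FPKM in Cct7 KD, against 2.81 and 2.62 FPKM in Cct7 KD Ctr, and rose by 1.23 (SE 0.06, limma adjusted p = 1.9e-05). The gain of Hspa4l in FPKM was thus far smaller than the loss of Hspa4. Hsph1, whose window holds the element shown above, had 33.5 and 34.2 FPKM in Cct7 KD, against 35.6 and 34.2 FPKM in Cct7 KD Ctr. The deposited values of Hsph1 touched each other, its scaled change was -0.22 ± 0.03 (SE; limma adjusted p = 0.0017), and the direction turned to 0.02 with a common total (adjusted p = 0.65).

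All 4 mitochondrial chaperones fell in Cct7 KD, and they did so without scaling too. Each has a mean above 100 FPKM, a level at which 67.8% of all genes tested fell. Hspd1 (chr1:55077835-55088243), the HSP60 chaperonin, had 359 and 350.2 FPKM in Cct7 KD, against 580.4 and 601 FPKM in Cct7 KD Ctr, and fell by 0.92 (SE 0.03, limma adjusted p = 6.7e-06). Hspe1 (chr1:55088132-55091307), its HSP10 lid, had 295 and 292 FPKM in Cct7 KD, against 417 and 444 FPKM in Cct7 KD Ctr, and fell by 0.74 (SE 0.04, limma adjusted p = 2e-05). In both genes each knockdown library lay far under each control library. The ratio of Hspd1 to Hspe1 FPKM was 1.22 and 1.20 in Cct7 KD, against 1.39 and 1.35 in Cct7 KD Ctr, so that Hspd1 was lower relative to its neighbour. Hspa9, the mitochondrial HSP70 also called mortalin, had 257 and 253 FPKM in Cct7 KD, against 301 and 311 FPKM in Cct7 KD Ctr, and fell by 0.44 (SE 0.03). Dnaja3, its J-domain partner, had 127 and 122 FPKM in Cct7 KD, against 171 and 172 FPKM in Cct7 KD Ctr, and fell by 0.64 (SE 0.03). Together the 4 genes took 0.220% and 0.216% of all FPKM in Cct7 KD, against 0.300% and 0.308% in Cct7 KD Ctr. Hspd1 shares 26.9% of its 100-base words with other genes, mostly a pseudogene, and Hspe1 0.347%.

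Both HSP90 genes fell by similar amounts. Each has a mean above 100 FPKM, where 67.8% of all genes tested fell. Hsp90aa1, the inducible form HSP90α, had 5922 and 5679 FPKM in Cct7 KD, against 6493 and 6523 FPKM in Cct7 KD Ctr, with a change of -0.35 ± 0.05 (SE; limma adjusted p = 0.0016). Hsp90ab1, the constitutive form HSP90β, had 1859 and 1840.2 FPKM in Cct7 KD, against 2148 and 2172 FPKM in Cct7 KD Ctr, with a change of -0.41 ± 0.04 (SE; limma adjusted p = 1.7e-04). In FPKM, which is per length, the ratio of Hsp90aa1 to Hsp90ab1 was 3.19 and 3.09 in Cct7 KD, against 3.02 and 3.00 in Cct7 KD Ctr. A share of 47.6% of the 100-base words of Hsp90aa1 occurs in other genes, mostly a predicted copy, so its level is uncertain. Both calls held in each scaling.

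Both small heat shock protein genes rose, in each scaling. Over all genes tested 40.3% rose with the median of ratios, and 6702 of 13588 genes rose without scaling. Hspb8, a partner of BAG3 in selective autophagy, had 19.7 and 18.8 FPKM in Cct7 KD, against 11.3 and 13.2 FPKM in Cct7 KD Ctr, and rose by 0.44 (SE 0.08, limma adjusted p = 0.0028). Hspb1, the holdase HSP25 of the mouse, rose by 0.28 (SE 0.05), with 42.7% of its 100-base words shared with a pseudogene. Bag3 itself, an exchange factor of HSP70 that is known as a target of HSF1, had 10.3 and 10.1 FPKM in Cct7 KD, against 15.2 and 15.6 FPKM in Cct7 KD Ctr, and fell by 0.72 (SE 0.04, limma adjusted p = 3.2e-05). The partners Hspb8 and Bag3 therefore moved in opposite directions.

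J-domain proteins bring clients to HSP70, and of the 7 genes 4 rose, 1 fell and 2 did not pass. Among all genes tested 40.3% rose and 40.5% fell. Dnaja4 (chr9:54698873-54716315) had 4.90 and 5.29 FPKM in Cct7 KD, against 0.611 and 0.600 FPKM in Cct7 KD Ctr, a change of 1.81 ± 0.08 (SE). Since Dnaja4 was tested only because it was high in the knockdown, this value is a description, and without Dnaja4 3 of the 6 other J-domain genes rose. Dnaja1, the main cytosolic J-domain protein of its type, had 58.8 and 55.7 FPKM in Cct7 KD, against 40.8 and 42.3 FPKM in Cct7 KD Ctr, and rose by 0.27 (SE 0.04, limma adjusted p = 0.0015). Dnajb6, a suppressor of protein aggregation, had 162 and 158 FPKM in Cct7 KD, against 257 and 254 FPKM in Cct7 KD Ctr. It was the single J-domain gene of the 7 that fell, by 0.85 (SE 0.03, limma adjusted p = 5.8e-06), with 31.0% of its 100-base words in other genes. Dnajb2, a J-domain protein with ubiquitin-interacting motifs, had 4.24 and 4.33 FPKM in Cct7 KD, against 3.66 and 3.82 FPKM in Cct7 KD Ctr, a change of 0.01 after scaling (95% interval -0.15 to 0.16). Dnajb1, the HSP40 that heat shock induces, rose by 0.40, Dnaja2 rose by 0.08, and Dnajb4 had a change of 0.28 that did not pass (adjusted p = 0.058).

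**Figure D2:**
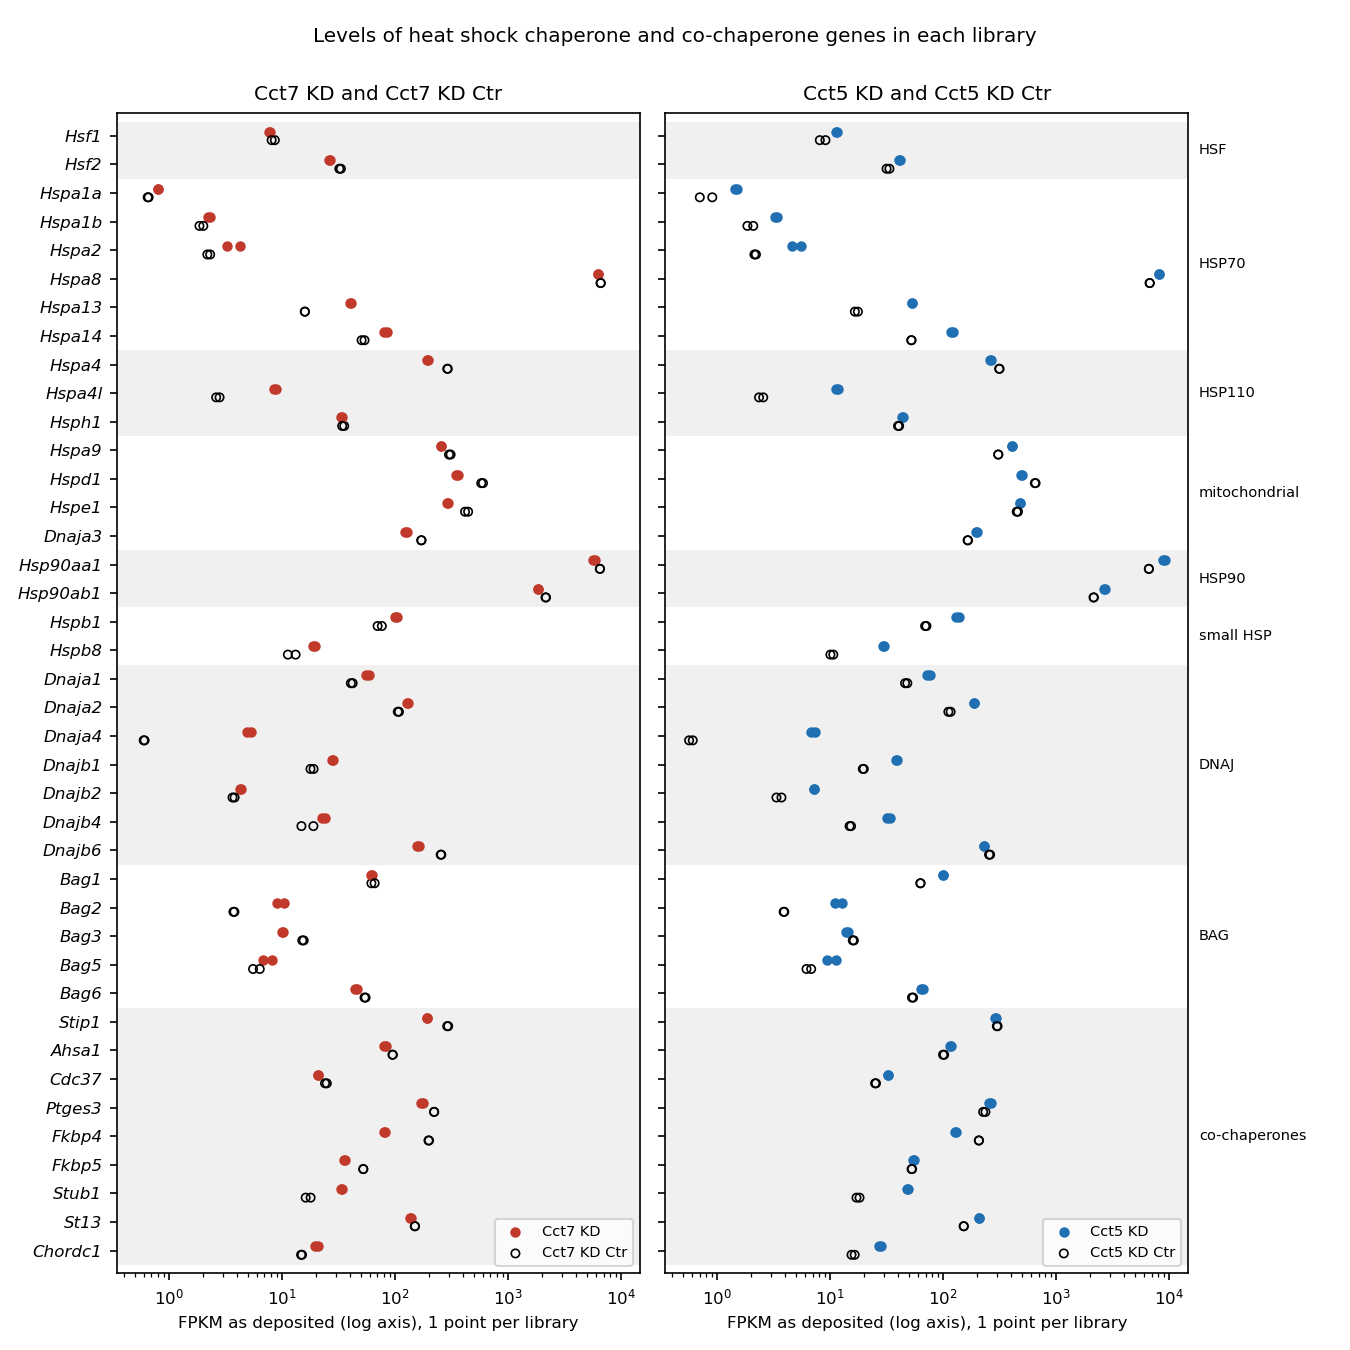
FPKM as deposited of the 40 genes in each library. The horizontal axis is FPKM on a log axis, the left panel holds 2 Cct7 KD (filled) and 2 Cct7 KD Ctr (open) libraries, the right panel 2 Cct5 KD (filled) and 2 Cct5 KD Ctr (open) libraries, and shading separates the roles named at the right. Fkbp4 and Hspd1 lie left of their controls in both panels, and Dnaja4 lies right of them with 4.90 and 5.29 FPKM in Cct7 KD, while most Cct5 KD points are shifted right by a total that was 1.502 times that of the control.

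BAG proteins also release HSP70 clients, and of the 5 genes 1 rose, 3 fell and 1 did not pass. The shares of all genes tested were 40.3% higher and 40.5% lower. Bag2, which inhibits the ubiquitin ligase CHIP, had 9.003 and 10.45 FPKM in Cct7 KD, against 3.73 and 3.80 FPKM in Cct7 KD Ctr, and rose by 1.01 (SE 0.08, limma adjusted p = 8.7e-05). Bag6, a holdase for membrane proteins on their way to insertion or degradation, had 44.5 and 46.2 FPKM in Cct7 KD, against 55.0 and 53.8 FPKM in Cct7 KD Ctr, and fell by 0.44 (SE 0.03, limma adjusted p = 6.9e-05). Both genes were clear of their controls in each library. Bag1, an exchange factor with a ubiquitin-like domain, fell by 0.23 relative to the median gene, but did not pass without scaling (-0.05) or with a common total (0.01), where its sign turned. Bag5 had a change of 0.12 that did not pass in this fit (adjusted p = 0.30).

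Of the 9 other co-chaperones, 7 fell and 2 rose, the same counts as without scaling. Over all genes tested 40.5% fell and 40.3% rose after scaling. Fkbp4 (chr6:128429735-128438677), the immunophilin FKBP52 of steroid receptor complexes, had 80.4 and 81.6 FPKM in Cct7 KD, against 198 and 200.4 FPKM in Cct7 KD Ctr. Its fall of 1.47 (SE 0.02, limma adjusted p = 1.2e-06) was the largest of the 39 genes, and 9.27% of all genes tested fell by at least 1. Fkbp5, the related FKBP51, had 35.6 and 35.8 FPKM in Cct7 KD, against 52.5 and 52.5 FPKM in Cct7 KD Ctr, and fell by 0.72 (SE 0.03). Stip1, also called HOP, which links HSP70 to HSP90, had 193 and 193 FPKM in Cct7 KD, against 290.1 and 296 FPKM in Cct7 KD Ctr, and fell by 0.78 (SE 0.03). These 3 genes carry TPR domains that bind the tail of HSP90. Ptges3, the p23 protein that stabilises closed HSP90, had 175 and 171 FPKM in Cct7 KD, against 222 and 223 FPKM in Cct7 KD Ctr, and fell by 0.54 (SE 0.03). Ahsa1, which speeds up the ATPase of HSP90, had 83.2 and 79.6 FPKM in Cct7 KD, against 95.1 and 95.9 FPKM in Cct7 KD Ctr, and fell by 0.41 (SE 0.03). Cdc37, which brings kinases to HSP90, fell by 0.40, and St13, the HSP70-interacting protein HIP, by 0.32. The exceptions were Stub1 and Chordc1. Stub1, the ubiquitin ligase CHIP that marks chaperone clients for degradation, had 33.7 and 34.2 FPKM in Cct7 KD, against 16.25 and 17.96 FPKM in Cct7 KD Ctr, and rose by 0.77 (SE 0.05, limma adjusted p = 5.4e-05). Chordc1, an HSP90-binding protein also called morgana, rose by 0.23 (SE 0.04).

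Set against the promoter letters, 4 of the 5 genes with a 3-unit element fell in Cct7 KD and 1, Chordc1, rose, with a median change of -0.74, where 40.5% of all genes tested fell. Of the 4, Hsph1 did not pass without scaling (adjusted p = 0.30) and turned to 0.02 with a common total, and Hspd1, Hspe1 and Dnajb6 lie above 100 FPKM, where 67.8% of all genes fell. Of the 28 genes with a window and no such element, 27 were tested, 11 rose and 12 fell, with a median of 0.03. Hspd1 and Hspe1 share 1 element, so these are not independent cases, and no test was made.

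The remainder of the Cct5 KD values was smaller in scale, and the chaperone genes were again mixed in it relative to its median gene. It made up 7.08% of the Cct5 KD value for Bag2, the lowest share of the 40 genes, and 38.6% for Hspa1a, the highest. Of 38 genes tested, 9 rose, 22 fell and 7 did not pass, with a median of -0.23, where over all 11963 genes 42.0% rose, 42.3% fell and 84.4% changed in either direction. Without scaling all 38 were lower, as were 10904 genes in all, so each rise given here is relative to the median gene. The unscaled median change over all genes was -1.15, and the remainder had a smaller FPKM total than Cct5 KD Ctr. An unscaled fall is therefore what most genes gave and does not set a chaperone gene apart. With a common total 6 rose and 28 fell, where 3897 genes rose and 6237 fell in all. Hspa1a and Dnaja4 were too low to be tested, and Bag2, Hspa2 and Hspa1b passed the filter on low values only through the controls. Bag2 is counted among the 22 that fell. The remainder was formed by subtraction, and its low values were whole multiples of 1 step in 99.0% and 99.1% of genes used. In the Cct7 KD libraries these shares were 99.3% and 99.2%. Whether the spread of the remainder is that of a single library was not tested. In the Cct5 KD values themselves, which hold the multiple of Cct7 KD, 12 of the 40 genes were higher and 24 lower, where of all 14179 genes 40.6% were higher, 40.8% lower and 81.4% either, and these counts are no independent evidence.

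Of the 38 genes tested in the remainder, 6 fell by at least 1 on the log2 scale relative to the median gene, as 8.85% of all genes tested did. They were Hspa8, Hspa4, Hsph1, Bag3, Hspd1 and Fkbp4. Other genes that work with HSP70 went each way. Hspa4l, Dnajb2, Stub1 and Bag1 were among those that rose, and Dnajb1 and Dnaja2 did not pass. Dnajb6, Dnaja1, Stip1, Bag6 and Bag2 were among those that fell by less than 1. Of 6 J-domain genes tested 2 rose and 2 fell, and of 5 BAG genes 1 rose and 4 fell. Over all genes tested 42.0% rose and 42.3% fell. Hspa8 had 1128 and 1120.4 FPKM in the remainder, against 6679 and 6713 FPKM in Cct5 KD Ctr, a change of -1.15 ± 0.02 (SE; limma adjusted p = 4.5e-07). Hspa4 had 39.2 and 38.9 FPKM in the remainder, against 315 and 312 FPKM in Cct5 KD Ctr, a change of -1.56 ± 0.02 that was the lowest of the 38 genes. Hsph1 had 5.69 and 5.58 FPKM in the remainder, against 39.8 and 40.7 FPKM in Cct5 KD Ctr, a change of -1.32 ± 0.03. Hspa4 and Hsph1 are the more abundant of the 3 HSP110 genes. Bag3, another exchange factor, had 2.67 and 2.50 FPKM in the remainder, against 15.8 and 16.2 FPKM in Cct5 KD Ctr, a change of -1.04 ± 0.05. The J-domain gene Dnaja1 had 9.55 and 9.84 FPKM in the remainder, against 48.1 and 45.9 FPKM in Cct5 KD Ctr, a change of -0.81 ± 0.03. Each of these 5 falls passed limma's test with the median of ratios and with a common total, where 28 of the 38 genes fell. Without scaling all 38 were lower, so that setting does not set these 5 apart.

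The mitochondrial genes came apart in the remainder. Hspd1 had 90.8 and 89.6 FPKM there, against 655 and 645 FPKM in Cct5 KD Ctr, a change of -1.42 ± 0.02, while Hspe1 had 142 and 146 FPKM, against 446 and 458 FPKM in Cct5 KD Ctr, a change of -0.22 ± 0.02. The ratio of Hspd1 to Hspe1 was 0.641 and 0.612 in the remainder, against 1.47 and 1.41 in Cct5 KD Ctr. Dnaja3 had 54.0 and 55.7 FPKM in the remainder, against 166 and 164 FPKM in Cct5 KD Ctr, and fell by 0.16 (SE 0.02). Hspa9 had 119 and 119 FPKM in the remainder, against 306 and 306 FPKM in Cct5 KD Ctr, a change of 0.07 ± 0.02 (limma adjusted p = 0.019). Its sign turned to -0.14 with a common total and to -1.35 without scaling, and without either Cct5 KD Ctr library it did not pass (0.04 in both), so Hspa9 was about at the median gene.

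Of HSP90 and its partners, most fell in the remainder. Hsp90aa1 had 2413 and 2385 FPKM in the remainder, against 6589 and 6577 FPKM in Cct5 KD Ctr, a change of -0.03 (95% interval -0.08 to 0.02) that did not pass. Hsp90ab1 had 579 and 579 FPKM in the remainder, against 2133 and 2146 FPKM in Cct5 KD Ctr, and fell by 0.46 (SE 0.02). Their ratio was 4.16 and 4.12 in the remainder, against 3.09 and 3.07 in Cct5 KD Ctr. Fkbp4 had 37.1 and 38.8 FPKM in the remainder, against 206 and 207 FPKM in Cct5 KD Ctr, and fell by 1.01 (SE 0.03). Stip1 fell by 0.60, with 74.5 and 72.1 FPKM in the remainder, against 302 and 298 FPKM in Cct5 KD Ctr. Ahsa1 fell by 0.61, with 24.6 and 24.0 FPKM, against 99.5 and 102 FPKM in Cct5 KD Ctr. Of the 9 co-chaperones 7 fell, where 42.3% of all genes tested fell, and the others were Stub1 and Cdc37. Stub1 had 9.94 and 10.5 FPKM in the remainder, against 17.1 and 18.2 FPKM in Cct5 KD Ctr, and rose by 0.59 relative to the median gene, while Cdc37 did not pass (-0.07).

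The largest rise in the remainder was that of Hspb8, with 7.81 and 7.90 FPKM there, against 10.64 and 10.04 FPKM in Cct5 KD Ctr, a change of 0.92 ± 0.04 relative to the median gene and of -0.36 without scaling. Dnajb2 had 2.37 and 2.26 FPKM in the remainder, against 3.34 and 3.70 FPKM in Cct5 KD Ctr, a change of 0.61 ± 0.06 and of -0.45 without scaling. Hspa4l had 1.58 and 1.62 FPKM in the remainder, against 2.55 and 2.35 FPKM in Cct5 KD Ctr, a change of 0.54 ± 0.06 and of -0.41 without scaling. These 3 genes, with Stub1, were the members that rose by over 0.5. Hspa13 had 7.37 and 7.67 FPKM in the remainder, against 17.6 and 16.5 FPKM in Cct5 KD Ctr, a change of 0.23 ± 0.04 that did not pass with a common total (0.03) and was -1.08 without scaling. Bag2 had 0.834 FPKM in both remainders, against 3.87 and 3.93 FPKM in Cct5 KD Ctr. Its change was -0.51 ± 0.05, after a rise of 1.01 in Cct7 KD. Since Bag2 passed the filter on low values only through the controls, its change in the remainder is a description.

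The stress-inducible HSP70 genes and the factors gave small values in the remainder as well. Hspa1a was listed at 0.607 and 0.523 FPKM in the remainder, against 0.702 and 0.905 FPKM in Cct5 KD Ctr. Hspa1b had 0.770 and 0.736 FPKM in the remainder, against 1.85 and 2.08 FPKM in Cct5 KD Ctr, a change of 0.02 (95% interval -0.14 to 0.18). Hsf1 had 2.70 and 2.47 FPKM in the remainder, against 8.09 and 9.08 FPKM in Cct5 KD Ctr, and fell by 0.25 (SE 0.07, limma adjusted p = 0.013). The call on Hsf1 was lost without remainder 2 (adjusted p = 0.061) and without Cct5 KD Ctr 2 (adjusted p = 0.053). Hsf2 had 11.9 and 11.3 FPKM in the remainder, against 33.4 and 31.5 FPKM in Cct5 KD Ctr, a change of -0.06 that did not pass (95% interval -0.16 to 0.05).

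**Figure D3:**
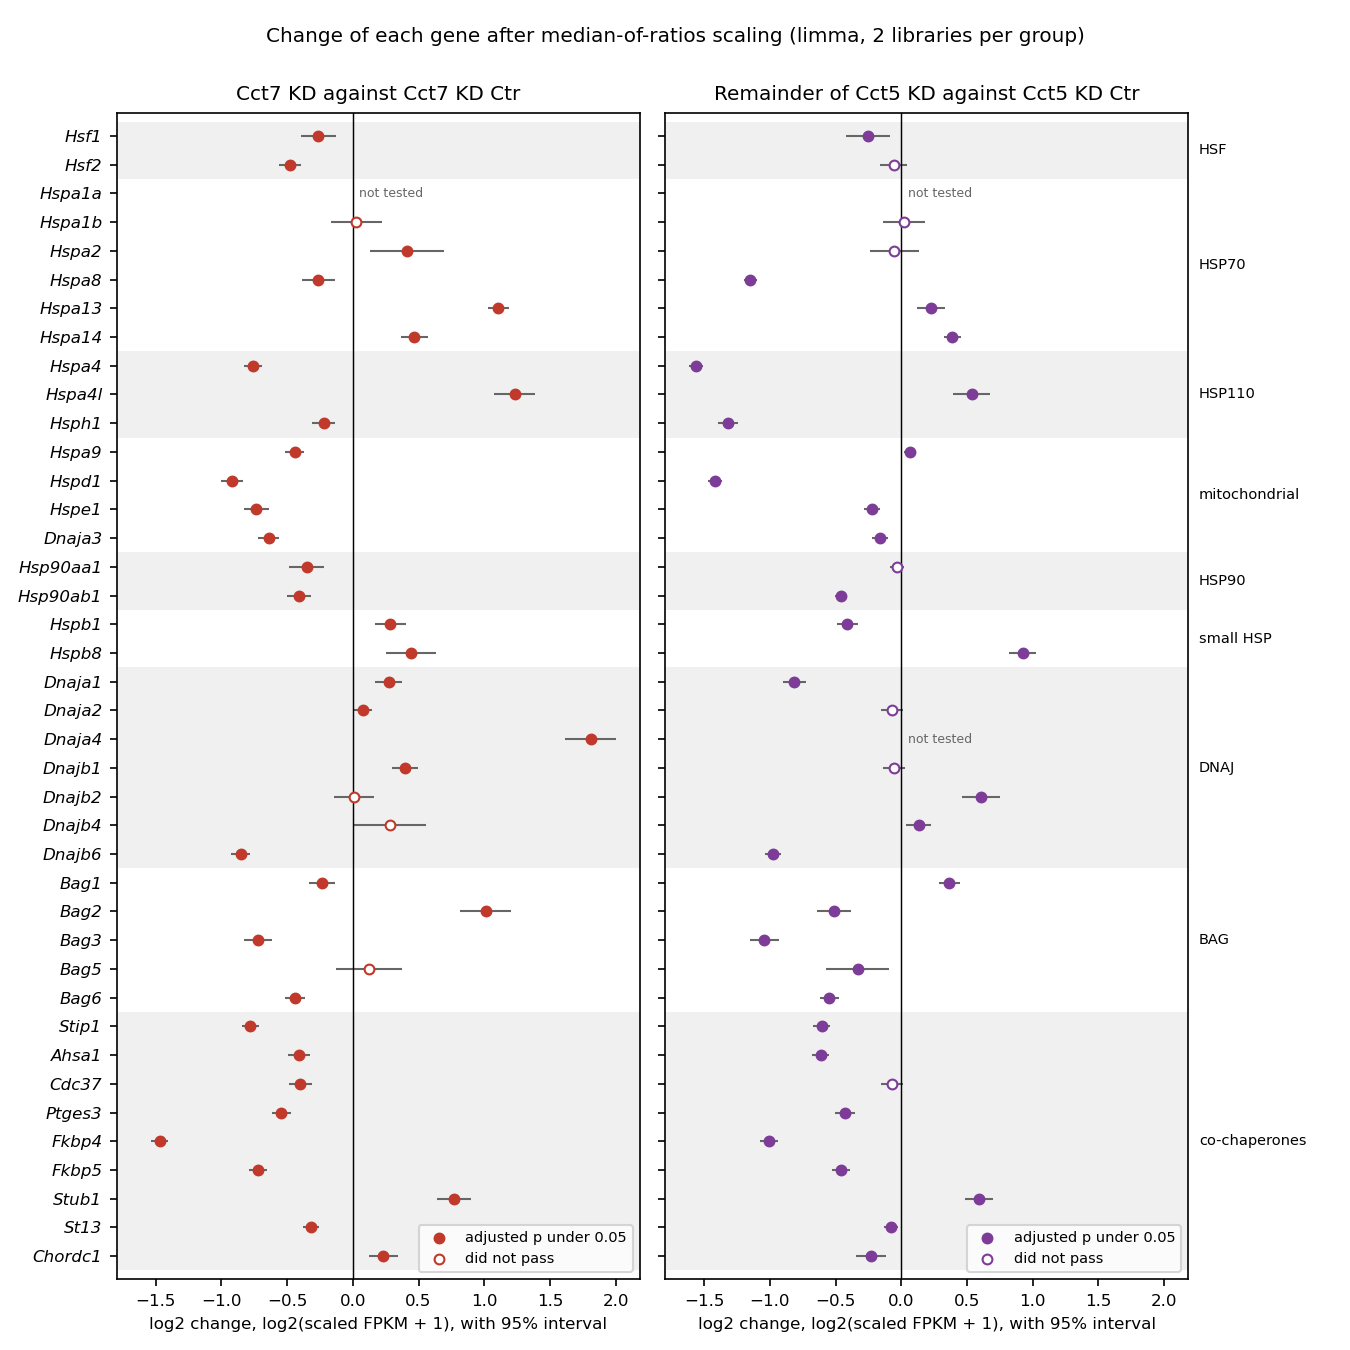
Log2 changes of the 40 genes after median-of-ratios scaling, with 95% intervals from limma (2 libraries per group). The left panel is Cct7 KD against Cct7 KD Ctr and the right panel the remainder of Cct5 KD against Cct5 KD Ctr, filled points have an adjusted p under 0.05, and zero is close to the median gene of each comparison. Fkbp4 (-1.47 and -1.01), Hspd1 (-0.92 and -1.42) and Hspa4 (-0.76 and -1.56) lie low in both panels, and without scaling every point of the right panel lies under zero.

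The remaining members can be given by their ranges. Dnajb6, Bag6, Ptges3 and Fkbp5 fell in the remainder by 0.97, 0.55, 0.43 and 0.46. Their FPKM were 47.7 and 49.1 for Dnajb6 in the remainder, against 259 and 254 in Cct5 KD Ctr, and 13.2 and 13.7 for Bag6, against 52.9 and 54.1 in Cct5 KD Ctr. They were 64.3 and 63.2 for Ptges3 in the remainder, against 236 and 225 in Cct5 KD Ctr, and 13.9 and 14.4 for Fkbp5, against 52.4 and 53.0 in Cct5 KD Ctr. The 11 genes described only by their change stayed within -0.40 to 0.47 in Cct7 KD and within -0.41 to 0.39 in the remainder.

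Chaperone and related genes outside the list gave a setting for these values, where 40.3% of all genes tested rose in Cct7 KD and 40.5% fell. Of the other heat shock factors, Hsf3 had 2.90 and 2.87 FPKM in Cct7 KD, against 0.233 and 0.128 FPKM in Cct7 KD Ctr, and Hsf4 had 1.85 and 1.71 FPKM in Cct7 KD, against 0.386 and 0.321 FPKM in Cct7 KD Ctr. Both passed the filter on low values only through the knockdown. Hsf5, too low to be tested, had 0.556 and 0.535 FPKM in Cct7 KD, against 1.03 and 1.04 FPKM in Cct7 KD Ctr, so the factors did not all lie on the same side. Hsbp1, whose small protein binds HSF1 and dampens it, rose by 0.16, in each scaling. Of 6 genes tested from a list of other HSP70 and small heat shock protein names, 3 rose. They were the lens crystallin Cryab by 1.61, Hspb11 by 1.18 and Hspa12a by 0.97. Cryab had 5.60 and 6.30 FPKM in Cct7 KD against 1.12 and 1.04 FPKM in Cct7 KD Ctr. A place in that list does not show that a gene acts as a chaperone. Hspb6 fell by 0.27 and lost its call without scaling (-0.16) and with a common total (-0.12). In the remainder Hspb11 and Hspa12a rose by 2.29 and 1.78, and by 0.95 and 0.46 without scaling, while Cryab was too low to be tested.

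Of 13 other mitochondrial chaperones and proteases tested, 9 fell and 1 rose in Cct7 KD, with a median change of -0.27, and without scaling 7 fell and 4 rose. Over all genes tested 40.5% fell and 40.3% rose after scaling. Timm44, which ties mitochondrial HSP70 to the import channel, fell by 1.24, with 25.2 and 24.3 FPKM in Cct7 KD against 52.2 and 53.4 FPKM in Cct7 KD Ctr. Trap1, the mitochondrial HSP90, fell by 0.88, the protease subunit Spg7 by 0.58 and the HSP70 exchange factor Grpel2 by 0.77. These 4 genes also fell without scaling, and in the remainder they fell by 0.56, 0.62, 0.64 and 0.42. The HSP90 co-chaperones outside the list were also on the low side in Cct7 KD, where 9 of 14 fell and 5 did not pass, with a median of -0.13, although 2 rose and 5 fell without scaling. Nudc, an HSP90 partner of the dynein pathway, fell by 0.98, Tomm34 by 0.94, the cyclophilin Ppid by 0.86 and the phosphatase Ppp5c by 0.85. The J-domain genes outside the list went the other way, with 16 of 26 higher and 9 lower and a median of 0.39, and 18 higher and 7 lower without scaling. Dnajc5, the cysteine string protein, rose by 1.21 and Dnajc14 by 0.95, while Dnajc21 fell by 1.00 and Dnajc7 by 0.71.

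The complexes that work beside HSP70 are CCT itself, prefoldin and the chaperones of the endoplasmic reticulum (ER). All 9 CCT genes fell in Cct7 KD with a median of -0.59, but 7 fell and 1 rose without scaling. Over all genes tested in Cct7 KD, 40.3% rose and 40.5% fell after scaling. Apart from Cct7, the smallest p among CCT genes were those of Cct4, which fell by 1.56 with 168 and 169 FPKM in Cct7 KD against 433 and 440.1 FPKM in Cct7 KD Ctr, of Cct3, which fell by 0.92, and of Cct2, which fell by 0.59. Of 6 prefoldin genes 5 fell, with Pfdn2 lowest at -1.06, and 3 fell without scaling. Of 15 ER chaperone genes 7 rose and 4 fell, and 11 rose and 3 fell without scaling. Hspa5, the ER HSP70 called BiP, had 235 and 228 FPKM in Cct7 KD, against 114 and 117 FPKM in Cct7 KD Ctr, and rose by 0.81. The lectin chaperone Calr rose by 0.82, and the ER J-domain genes Dnajc3 and Dnajb11 by 1.56 and 0.70. In the remainder 10 of 15 ER genes rose and 3 fell relative to the median gene, with a median of 0.44. There 42.0% of all genes tested rose and 42.3% fell. Without scaling 2 ER genes rose and 13 fell, where 501 genes in all rose and 10904 fell. Hspa5 rose by 1.01 relative to the median gene (-0.40 without scaling) and Calr by 1.56 (0.14 without scaling).

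**Figure D4:**
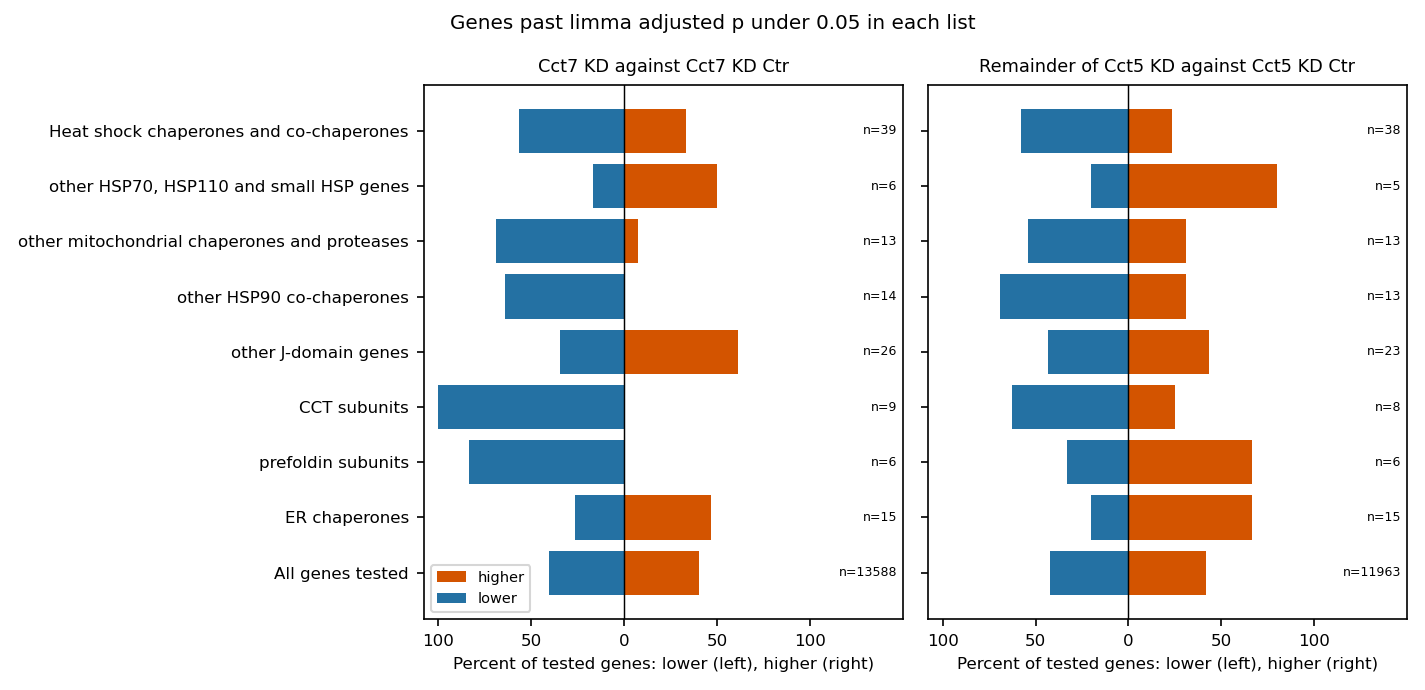
Share of tested genes of the lists shown past limma's adjusted p of 0.05, higher to the right and lower to the left, in Cct7 KD against Cct7 KD Ctr (left panel) and in the remainder of Cct5 KD against Cct5 KD Ctr (right panel), with the number of genes tested at the right. In Cct7 KD 22 of 39 heat shock chaperone genes and 9 of 9 CCT genes were lower, while over all genes the shares higher and lower were 40.3% and 40.5%. Without scaling these counts were 18 and 7, and in the remainder all 38 heat shock chaperone genes were lower without scaling.

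The state of the cells moved along with these genes. The summed level of 12 pluripotent stem cell markers was 992 and 999 FPKM in Cct7 KD, against 3933 and 4138 FPKM in Cct7 KD Ctr. After scaling all 12 were lower by limma's test, where 40.5% of all genes tested were lower and 40.3% higher. Without scaling 11 of the 12 were lower. The controls thus carried the markers of the labelled cell type. Germ cell markers summed to 1299 and 1277 FPKM in Cct7 KD, against 153 and 153 FPKM in Cct7 KD Ctr, with 10 of 12 higher and 2 lower, and trophoblast markers to 848 and 856 FPKM, against 112 and 111 FPKM in Cct7 KD Ctr, with 3 of 6 tested higher and 2 lower. That rise lay in Krt8, Krt18 and Peg10, while the defining trophoblast genes Cdx2, Gata3 and Elf5 were too low to be tested, with Cdx2 at 0.213 and 0.141 FPKM in Cct7 KD against 0 and 0.0759 FPKM in Cct7 KD Ctr. Fibroblast markers, which would mark feeder cells, summed to 13.5 and 14.3 FPKM in Cct7 KD, against 10.8 and 11.7 FPKM in Cct7 KD Ctr, where 3 of 9 markers were high enough to be tested, 2 of them higher and 1 lower. In the remainder 10 of 12 stem cell markers fell and 1 rose, 8 of 10 germ cell markers tested rose, and 5 of 5 trophoblast markers fell. Over all genes tested in the remainder 42.0% rose and 42.3% fell. Without scaling all 12 stem cell markers were lower in the remainder and germ cell markers were 5 higher and 5 lower. In that setting 501 genes in all were higher and 10904 lower. The part of this shift in cell state markers in the changes of the chaperone genes was not tested.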

How the data were processed

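Per the labels' protocols, poly(A) RNA with an integrity number above 7.0 was made into strand-specific libraries and sequenced on a DNBSEQ-T7 as pairs of 150 bp. The authors deposited FPKM per gene, a table per knockdown that also holds its control, and the submitters' processing notes name HTSeq and mm10. The sources used here give no versions, aligner, annotation, gene lengths or gene filter. Gene IDs listed more than once (8 in the Cct5 table, 6 in the Cct7 table) were left out, and symbols came from GENCODE on GRCm38, where 41 of 19896 IDs had none.

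The depth is not in the files. FPKM denominators were taken from the step of which 95% of low values are whole multiples within 0.05 of a fragment. Precision follows from them, since 1 fragment on 1 kb is 0.0183 to 0.0531 FPKM in the 6 libraries with a denominator (Cct5 KD has none), and this covers counting error only. The remainder is Cct5 KD FPKM less 1.125 times Cct7 KD FPKM with that number, the factor being the most common ratio of the pair at a relative tolerance of 1e-06.

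Each comparison was fitted with limma 3.58.1 (eBayes, trend on the mean level) in R 4.3.3 on 4 libraries, on log2(FPKM + 1) after median-of-ratios scaling, with Benjamini-Hochberg adjustment over all genes whose mean was 1 FPKM or more. Scaling was used because FPKM totals differ between the groups. Alternatives were no scaling, a common total, no filter, a pseudocount of 0.1, all libraries in 1 fit, a block for the replicate number and leaving out each library. Values per library are given for Hsf1, Hsf2, Hspa1a, Hspa1b, Hspa8, Hspa9, Hspd1, Hspe1, Hsp90aa1, Hsp90ab1 and each member that passed with an absolute log2 change of at least 0.5 in Cct7 KD or the remainder (29 in all), and of each other list the 4 tested genes with the smallest p in Cct7 KD. Members and lists were chosen with earlier results of these data known. Promoters came from RefSeq on GRCm38.p6 and were matched by symbol. Shared sequence was counted as 100-base words of the longest transcript found in other genes of the annotation.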

Additional observations from a re-analysis of the deposited data

Results flagged for a closer look

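Some chaperone genes lay on opposite sides of their controls in the knockdowns, with both libraries above their controls in one comparison and both below in the other after scaling. The remainder is derived with the Cct7 KD values, so none of these differences was tested. In the remainder against Cct5 KD Ctr minus Cct7 KD against Cct7 KD Ctr, the difference of log2 changes was -1.52 for Bag2 (-0.51 and 1.01), -1.08 for Dnaja1 (-0.81 and 0.27), -0.69 for Hspb1 (-0.41 and 0.28) and -0.46 for Chordc1 (-0.23 and 0.23). It was -0.45 for Dnajb1 (-0.05 and 0.40) and -0.15 for Dnaja2 (-0.07 and 0.08), where the remainder did not pass the test. In the other direction it was 0.60 for Bag1 (0.37 and -0.23) and 0.51 for Hspa9 (0.07 and -0.44). Without scaling all 8 genes were lower in the remainder. Bag2 passed the filter on low values there only through the controls, so its change in the remainder is a description.

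In Cct5 KD as deposited, which holds the Cct7 KD values, the difference from Cct7 KD was -0.40 for Dnaja1 (-0.13 and 0.27) and -0.16 for Dnaja2 (-0.08 and 0.08), also not tested. Without scaling both genes were higher in Cct5 KD, by 0.65 and 0.70.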

How the results depend on the processing

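Scaling mattered most. Without it, 33 chaperone genes were higher and 5 lower in Cct5 KD, with 11057 and 1605 genes in all, and 0 were higher and 38 lower in the remainder, with 501 and 10904 genes in all, by limma. In Cct7 KD the counts of chaperone genes kept within 1.5 times under each alternative.

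Unscaled Cct5 KD changes turned to 0.37 for Hsf1, 0.34 for Hsf2, 0.54 for Hspa1b, 0.29 for Hspa8, 0.12 for Hsph1, 0.41 for Hspa9, 0.069 for Hspe1, 0.24 for Dnaja3, 0.44 for Hsp90aa1, 0.31 for Hsp90ab1, 0.65 for Dnaja1, 0.26 for Bag6, 0.20 for Ahsa1, 0.16 for Ptges3 and 0.043 for Fkbp5. With a common total they turned to 0.12 for Hspa1b and 0.070 for Dnaja1 in Cct5 KD, to 0.020 for Hsph1 in Cct7 KD, and to -0.094 for Hspa1b and -0.14 for Hspa9 in the remainder. Unscaled changes in the remainder turned to -0.76 for Hspa1b, -1.08 for Hspa13, -0.41 for Hspa4l, -1.35 for Hspa9, -0.36 for Hspb8, -0.45 for Dnajb2 and -0.73 for Stub1.

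Changes near 0 that did not pass also turned. With no filter on low values, whose scaling uses other genes, Hspa1b turned to -0.019 and Dnajb2 to -0.044 in Cct7 KD, and Hspa1b to -0.0042 in the remainder. On leaving out each library in turn, Hspa1b ranged from -0.027 to 0.064 and Dnajb2 from -0.033 to 0.039 in Cct7 KD, Hspa1b from -0.034 to 0.055 in the remainder, and Hspa1a from -0.065 to 0.13 and Hspa1b from -0.11 to 0.017 in Cct5 KD.

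Leaving out each library in turn gave 11 to 13 chaperone genes higher and 21 to 22 lower in Cct7 KD, 10 to 11 higher and 21 to 24 lower in Cct5 KD, and 8 to 9 higher and 19 to 22 lower in the remainder. A lone library is then taken to vary like the others. Replicate numbers did not pair libraries, with correlations of their deviations of -0.038 in Cct7 KD, -0.014 in Cct5 KD and -0.13 in the remainder. With the replicate block, 13 were higher and 21 lower in Cct7 KD, where the call on Hspa8 was lost (adjusted p = 0.065), 12 and 24 in Cct5 KD, and 9 and 22 in the remainder. With the numbers of the controls crossed, chosen after seeing the data, 9 were higher and 23 lower in the remainder. The depth of Cct5 KD is unknown, which limits what can be said of its low genes. Apart from the scaling, the cause of these shifts was not tested.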
